A study of Mus musculus with 10 samples.

Results

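Genes of the microtubule cytoskeleton were compared between TdTomato+ and TdTomato- cells of the embryonic mouse dorsal telencephalon. The set held every gene whose symbol begins with *Tuba*, *Tubb* or *Tubg* followed by a digit, and 40 listed genes for doublecortins, microtubule-associated proteins, stathmins, dynein regulators, kinesins, proteins bound to microtubule ends and neuronal intermediate filaments. All 40 listed genes and 13 tubulin genes had a row, which gave 53 of the 14300 genes in the table. *Tuba3a*, *Tuba3b*, *Tuba8*, *Tubb1* and the loci annotated as *Tubb2a-ps2*, *Tubb4b-ps1* and *Tubb4b-ps2* matched the name rule but had no row.

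The libraries were made from *Grem1creERT; Rosa26LSLTdtomato* embryos on a C57BL6/J background. Pregnant dams received tamoxifen at 13.5 days post coitum (dpc) and embryos were collected at 14.5 dpc, 24 hours later. Live cells of each of 5 mice, numbered 2 to 6, were sorted into a TdTomato+ and a TdTomato- population, and each population gave 1 RNA-seq library, so that all 10 libraries share the genotype, the tamoxifen and the sort. The methods name the dissected dorsal telencephalon without meninges as the source, whereas the labels say only brain. *Grem1* regulatory sequences drive the Cre recombinase, and descendants inherit the recombined reporter. The TdTomato- population is a mixture of all live cells without the label, excitatory neurons by their markers included.

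Microtubules are hollow polymers of alpha- and beta-tubulin dimers that grow from gamma-tubulin complexes. Newborn neurons use them to move the nucleus, to extend an axon and dendrites and, through kinesin and dynein motors, to carry cargo. Most of these proteins are encoded by small families of paralogs, some used by dividing cells and others mainly by neurons.

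Read sequences can only be assigned to tubulin paralogs where these differ, and the authors kept uniquely mapped reads. The coding sequences of *Tuba1a* and *Tuba1b* were 98.3% identical, those of *Tuba1b* and *Tuba1c* 98.4% and those of *Tubb2a* and *Tubb2b* 96.5%, whereas *Tubb5* shared 82.4 to 84.8% with *Tubb2a*, *Tubb2b*, *Tubb3*, *Tubb4a* and *Tubb4b*. The final 75 coding bases, stop codon included, encode most of the acidic tail in which tubulin isotypes differ most, and those of 6 beta-tubulins are given here (GENCODE M21 transcripts, GRCm38, coding strand). Capitals mark bases that differ from *Tubb5* in an alignment of the whole coding sequence.
Tubb5: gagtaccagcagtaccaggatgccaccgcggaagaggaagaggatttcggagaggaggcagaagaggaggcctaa
Tubb2b: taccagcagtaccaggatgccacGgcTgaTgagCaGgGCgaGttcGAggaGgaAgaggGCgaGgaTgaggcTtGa
Tubb2a: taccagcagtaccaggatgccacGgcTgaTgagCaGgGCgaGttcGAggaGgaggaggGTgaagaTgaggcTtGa
Tubb4a: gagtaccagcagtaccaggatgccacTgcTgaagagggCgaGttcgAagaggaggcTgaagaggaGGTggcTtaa
Tubb4b: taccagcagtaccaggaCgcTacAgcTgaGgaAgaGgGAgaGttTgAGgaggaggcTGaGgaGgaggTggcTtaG
Tubb3: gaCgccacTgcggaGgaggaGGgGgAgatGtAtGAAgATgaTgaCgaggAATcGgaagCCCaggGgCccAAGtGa
They lie in the last coding exons at chr17:35834982-35835056 (*Tubb5*, minus strand), chr13:34127471-34127545 (*Tubb2b*, minus), chr13:34074468-34074542 (*Tubb2a*, minus), chr17:57080690-57080764 (*Tubb4a*, minus), chr2:25222308-25222382 (*Tubb4b*, minus) and chr8:123421608-123421682 (*Tubb3*, plus). *Tubb3* had the largest number of differing bases, 29, and *Tubb4a* the smallest, 10. A read of 75 bases occurred in no transcript of another gene for 29.6% of start positions in *Tuba1a*, 31.2% in *Tuba1b*, 50.1% in *Tuba1c*, 56.8% in *Tubb2a* and 69.5% in *Tubb2b*. Levels of these genes were therefore counted from part of their length in every library. The transcripts that shared such reads were not only those of paralogs. They included *Gm49450*, which overlaps *Tuba1a* and *Tuba1b* and shared 599 and 580 start positions with them.

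The total counts of the TdTomato+ libraries were 23429034 to 24545138 and those of the TdTomato- libraries 23542791 to 27286180. The summed CPM (counts scaled to library size with TMM factors) of 8 excitatory neuron markers was 7014 to 8407 in TdTomato+ libraries against 1846 to 2620 in the others. They were the layer V and VI genes *Fezf2*, *Tbr1*, *Sox5* and *Bcl11b* and the more general *Neurod2*, *Neurod6*, *Slc17a7* and *Slc17a6*. Of the 8, 7 were higher, the exception being *Slc17a6*. All 10 radial glia and intermediate progenitor markers, all 8 cycling cell markers and all 8 GABAergic neuron markers were lower, at 6.98%, 2.81% and 3.90% of the summed TdTomato- level. Microglia markers summed to 13.1 to 61.2 CPM (TdTomato-) and 0.725 to 1.67 CPM (TdTomato+), with *C1qa*, *C1qb* and *Tyrobp* at 0 counts in at least 1 TdTomato+ library. All 5 erythroid markers were lower, with sums of 74.1 to 258 CPM (TdTomato-) and 1.18 to 25.7 CPM (TdTomato+), and the 3 pericyte markers in the table were at 11% of their TdTomato- sum. The endothelial and meningeal markers in the table summed to at most 4.44 and 5.29 CPM in any library. In sorted populations of this kind, fewer cells of a type and less RNA per cell cannot be told apart.

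Of the 53 genes, 39 were higher and 11 lower in TdTomato+ cells at an adjusted p of 0.05 or less (edgeR quasi-likelihood test with mouse as a block, Benjamini-Hochberg adjustment over all 14300 genes). The share of higher genes was 73.6%, beside 37.9% of all genes, and the share of lower genes was 20.8%, beside 39.4%. Of these, 10 genes were higher by 2-fold or more (18.9%, beside 12.1% of all genes) and 5 lower by as much (9.43%, beside 16.4%). At the study's threshold for differentially expressed genes, a change of 2 or more on the log2 scale, the count of higher members was 0 (beside 3.20% of all genes), since the largest log2 fold change was 1.80, and 4 were lower (7.55%, beside 9.74%), namely *Nde1*, *Tuba1c*, *Tubb6* and *Kif26b*. The CPM of the groups did not overlap for 45 genes (84.9%, beside 61.6% of all genes). The median log2 fold change was 0.48 for the 53 genes and -0.01 for the whole table. *Kif5b*, *Nefl* and *Nefm* were the 3 genes called in neither direction. The plot of log2 fold changes by class sets the 53 genes side by side.

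**Figure D1:**
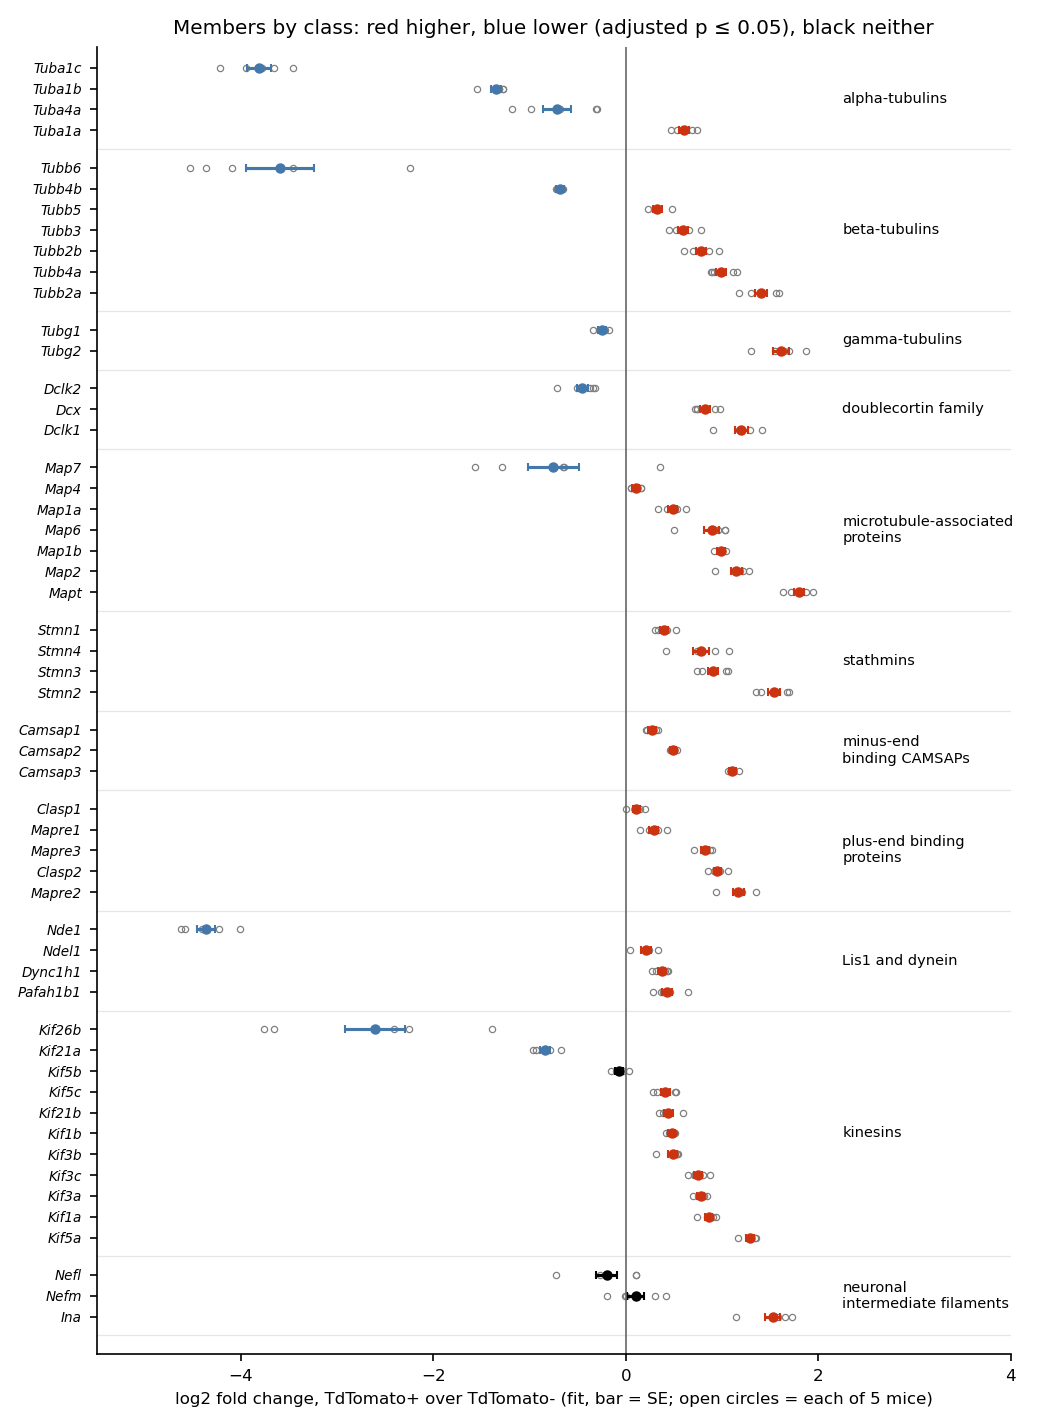
Log2 fold change of TdTomato+ over TdTomato- cells for the 53 genes, grouped by class. Filled points are the fitted values with bars for the standard error, open circles the differences within each of the 5 mice. In every class at least 1 gene lies to the right of 0, and the 4 points furthest to the left are *Nde1*, *Tuba1c*, *Tubb6* and *Kif26b*.

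Of the 4 alpha-tubulins, 1 rose and 3 fell, beside 37.9% higher and 39.4% lower among all genes. *Tuba1a*, the main alpha-tubulin gene of postmitotic neurons, was the gene that rose and had the highest level of the class. It was at 2784, 2870.2, 3303, 3046 and 3306 CPM in the TdTomato- libraries of mice 2, 3, 4, 5 and 6, and at 4661, 4630.2, 4779.9, 4571 and 4579 CPM in their TdTomato+ libraries. All TdTomato+ values lay above all TdTomato- values, and the gene rose (log2 fold change 0.60 ± 0.05 s.e., adjusted p = 3.6e-06). *Tuba1b*, a widely expressed isotype, was at 99.2, 107, 104, 114 and 111 CPM (TdTomato-) and 39.9, 44.3, 43.2, 38.96 and 44.7 CPM (TdTomato+), in the same order of mice, and fell by 1.35 ± 0.05 s.e. in log2 fold change (adjusted p = 3.2e-08). *Tuba1c*, another nearly identical isotype (chr15:99029891-99038110), was at 16.4, 17.4, 16.7, 15.7 and 16.8 CPM (TdTomato-) and 1.04, 1.56, 1.19, 0.826 and 1.31 CPM (TdTomato+). The groups of *Tuba1b* and of *Tuba1c* were far apart in every mouse, and *Tuba1c* fell by 3.81 ± 0.12 s.e. in log2 fold change (adjusted p = 1.1e-08), to 7.14% of its TdTomato- mean. *Tuba4a* was at 4.18, 12.02, 11.2, 6.69 and 7.42 CPM (TdTomato-) and 3.36, 5.29, 5.65, 5.43 and 4.61 CPM (TdTomato+), and was lower in each mouse although the groups overlapped (log2 fold change -0.72 ± 0.15 s.e., adjusted p = 0.0018). Another gene, *Stk16*, overlaps 37.3% of the exonic length of *Tuba4a* on the other strand, and a read-through transcript overlaps 26.2% of *Tuba1a* and 22.7% of *Tuba1b*.

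Of the 7 beta-tubulins, 5 rose and 2 fell, beside 37.9% higher and 39.4% lower among all genes. *Tubb5* was at 3472, 3701, 3932, 3872 and 3946 CPM (TdTomato-) and 4844, 4648, 4604, 4796 and 4831 CPM (TdTomato+), the smallest increase of the class (log2 fold change 0.33 ± 0.05 s.e., adjusted p = 1.3e-04). *Tubb2b*, a beta-tubulin of migrating cortical neurons, was at 2001, 1986, 2338, 2197 and 2294 CPM (TdTomato-) and 3921, 3612, 3559, 3749.9 and 3724 CPM (TdTomato+). Both genes had groups that did not overlap, and *Tubb2b* rose as well (log2 fold change 0.78 ± 0.06 s.e., adjusted p = 1.4e-06). *Tubb3*, the isotype widely used as a marker of neurons, was at 1532, 1613, 1890.2, 1780.4 and 1819.8 CPM (TdTomato-) and 2637, 2535, 2571, 2633 and 2616 CPM (TdTomato+) (log2 fold change 0.59 ± 0.05 s.e., adjusted p = 6.4e-06). The groups did not overlap, although *Tubb3* was also high in every TdTomato- library. *Tubb4a* was at 216, 202, 243, 244 and 268 CPM (TdTomato-) and 481, 436, 452, 449 and 503 CPM (TdTomato+) (log2 fold change 0.99 ± 0.05 s.e., adjusted p = 1.9e-07).

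*Tubb2a*, the near-identical neighbour of *Tubb2b* on chromosome 13, had the largest increase of the tubulins apart from *Tubg2*. It was at 162, 154, 195, 178 and 171 CPM (TdTomato-) and 489, 454, 441, 466 and 422 CPM (TdTomato+) (log2 fold change 1.40 ± 0.06 s.e., adjusted p = 7.4e-08). *Tubb4b*, a broadly expressed isotype, was at 102, 110.4, 115, 108 and 111 CPM (TdTomato-) and 62.4, 69.96, 71.7, 68.5 and 67.1 CPM (TdTomato+), and fell by 0.69 ± 0.04 s.e. in log2 fold change (adjusted p = 3.2e-07). The *Tubb4b* groups were apart in all mice, with a spread within groups that was small beside the difference. *Tubb6* was near the floor of detection. It had 59, 72, 42, 65 and 76 counts in the TdTomato- libraries and 2, 2, 3, 3 and 12 counts in the TdTomato+ libraries of mice 2, 3, 4, 5 and 6. In the summed counts its TdTomato+ level was 8.28% of the TdTomato- level (95% interval 5.11 to 12.8%, exact binomial, counting error only), and the TdTomato+ library of mouse 6 held 12 of the 22 counts. The fitted log2 fold change of *Tubb6* was -3.59 ± 0.36 s.e. (adjusted p = 1.4e-05) with all mice and -4.29 without mouse 6.

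The gamma-tubulins nucleate microtubules. *Tubg1*, the more abundant of the pair, was at 68.7, 76.8, 77.7, 75.97 and 73.4 CPM (TdTomato-) and 59.3, 63.2, 68.6, 59.8 and 62.5 CPM (TdTomato+), and fell by 0.25 ± 0.04 s.e. in log2 fold change (adjusted p = 6.3e-04). *Tubg2* (chr11:101155907-101161787, plus strand) was at 12.5, 8.53, 9.83, 13.4 and 11.2 CPM (TdTomato-) and 36.7, 31.4, 30.7, 33.1 and 36.2 CPM (TdTomato+). It rose in all 5 mice (log2 fold change 1.61 ± 0.08 s.e., adjusted p = 1.7e-07), and neither gene had overlapping groups. As a share of the pair's counts per kilobase of exon, *Tubg2* went from 16.1% ± 2.81 to 40.9% ± 3.09 (SD, n = 5). The summed CPM of the 13 tubulin genes was 10472, 10862, 12237, 11654 and 12138 in TdTomato- and 17236, 16531, 16629, 16872 and 16892 in TdTomato+ libraries, with a mean log2 difference of 0.56 over mice (SD 0.11, higher in 5 of 5 mice). The exact two-sided sign-flip test over 5 pairs gave p = 0.0625, the smallest value it can give. For the alpha-tubulins the median log2 fold change (-1.03) and the difference of the summed CPM (0.56) had opposite signs, *Tuba1a* being nearly all of the sum. The gamma-tubulin sum was higher by 0.17 with TMM scaling and lower by a log2 difference of -0.01 when total counts alone set the scale. For the sum of all 13 tubulin genes the log2 difference was 0.38 on that scale, beside 0.56 with TMM scaling.

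**Figure D2:**
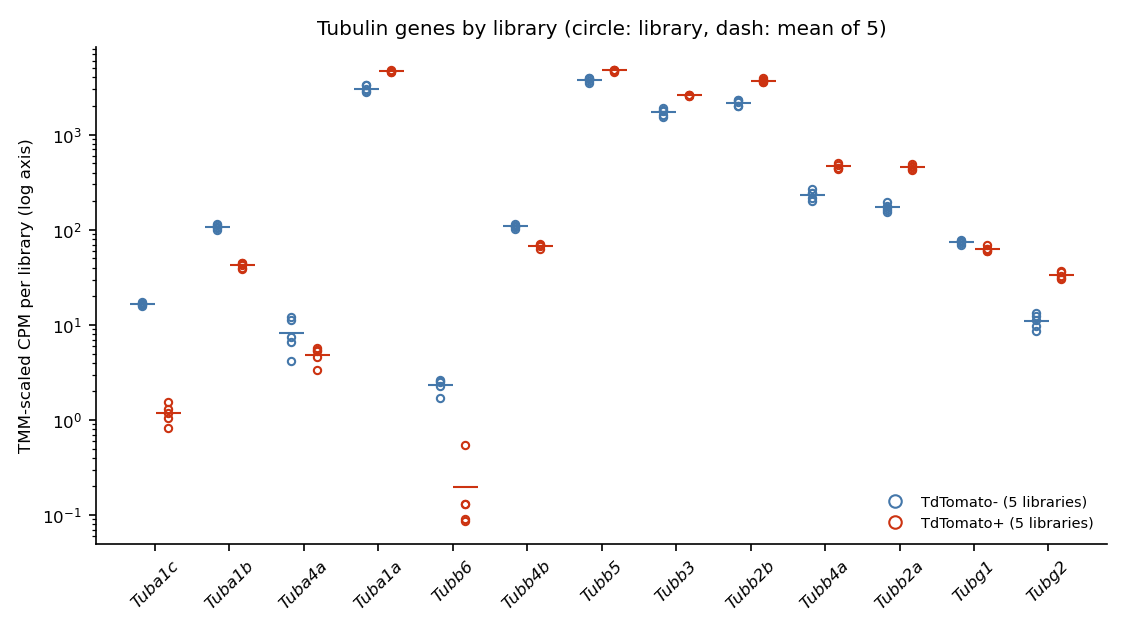
TMM-scaled CPM of the 13 tubulin genes in each of the 5 TdTomato- (blue) and 5 TdTomato+ (red) libraries on a log axis, with a dash at each mean. *Tuba1c* and *Tubb6* are the lowest of their classes in TdTomato+ libraries, with *Tuba1c* between 0.826 and 1.56 CPM, while *Tuba1a*, *Tubb5*, *Tubb2b* and *Tubb3* are the 4 highest.

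The doublecortin family binds along microtubules of migrating neurons. *Dcx*, its founding member (chrX:143855842-143933311), was at 1541, 1593, 1635, 1455 and 1385 CPM (TdTomato-) and 2539, 3023, 2737, 2859 and 2317 CPM (TdTomato+) (log2 fold change 0.82 ± 0.05 s.e., adjusted p = 5.1e-07). *Dclk1*, a kinase with doublecortin domains, had the largest increase of the 3, from 404, 408, 466, 353 and 354 CPM to 990.4, 924, 869.7, 939 and 820.2 CPM (log2 fold change 1.20 ± 0.07 s.e., adjusted p = 3.0e-07). *Dclk2*, the other doublecortin-like kinase, was at 652, 411, 389, 478 and 462 CPM (TdTomato-) and 396, 318, 311, 337 and 366 CPM (TdTomato+). The *Dclk2* groups overlapped, since the TdTomato+ value of mouse 2 lay above the TdTomato- value of mouse 4, but within each mouse *Dclk2* was lower in TdTomato+ cells (log2 fold change -0.45 ± 0.06 s.e., adjusted p = 1.1e-04). Its share of the family went from 23.6% ± 4.2 to 10.8% ± 1.66, while that of *Dcx* went from 62.9% ± 3.20 to 69.7% ± 2.71 (SD, n = 5).

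Of the 7 microtubule-associated proteins, 6 rose and 1 fell, beside 37.9% higher and 39.4% lower among all genes. *Map1b*, an early axonal protein, had the highest level of the class, at 3846, 3964, 4073, 3772 and 3457 CPM (TdTomato-) and 7914, 7906, 7693, 7509 and 6869 CPM (TdTomato+) (log2 fold change 0.99 ± 0.04 s.e., adjusted p = 3.0e-08). *Mapt*, which encodes the axonal protein tau (chr11:104231390-104332090), had the largest increase of all 53 genes. It was at 748, 598, 717, 741 and 742 CPM (TdTomato-) and 2738, 2298, 2229, 2622 and 2439 CPM (TdTomato+) (log2 fold change 1.80 ± 0.05 s.e., adjusted p = 5.7e-09), and the lowest TdTomato+ value exceeded the highest TdTomato- value by a wide margin. *Map2*, the dendritic and somatic relative of tau, rose by 1.15 on the log2 scale (s.e. 0.05), from 1211 ± 86.9 to 2679.9 ± 133 CPM (SD, n = 5). For *Map6*, which stabilizes microtubules against cold, the log2 fold change was 0.89 (s.e. 0.08), and for *Map1a*, a relative of *Map1b* known from mature neurons, it was 0.49 (s.e. 0.05).

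*Map4*, the widely expressed relative of *Map2* and *Mapt*, passed the test by 0.10 ± 0.04 s.e. (log2, adjusted p = 0.030), its groups overlapped, and the call was lost in 5 of 11 alternative analyses. *Map7*, which recruits kinesin-1 to microtubules, was at 1.88, 3.01, 3.45, 2.26 and 2.65 CPM (TdTomato-) and 2.403, 1.21, 1.15, 1.43 and 1.67 CPM (TdTomato+). Mouse 2 went the opposite way to the other mice, the groups overlapped, and the call (log2 fold change -0.76 ± 0.27 s.e., adjusted p = 0.027) was lost when any of mice 3, 4, 5 or 6 was left out. The summed CPM of the class was 6515, 6543, 6928, 6431 and 6053 (TdTomato-) and 14495, 13943, 13463, 13926 and 12853 (TdTomato+), higher in 5 of 5 mice (exact sign-flip p = 0.0625).

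Stathmins bind tubulin dimers and promote microtubule disassembly. All 4 were higher in TdTomato+ cells (37.9% of all genes), with groups that did not overlap (61.6% of all genes). *Stmn1*, the family member shared with dividing cells, was the most abundant per kilobase, at 529, 502, 556, 563 and 556 CPM (TdTomato-) and 711, 719.7, 732, 712 and 685 CPM (TdTomato+) (log2 fold change 0.40 ± 0.04 s.e., adjusted p = 2.1e-05). *Stmn2*, a membrane-bound form of growing axons (chr3:8509360-8561606), was at 364, 353, 448, 385 and 415 CPM (TdTomato-) and 1164, 1142, 1142, 1144 and 1097 CPM (TdTomato+) (log2 fold change 1.54 ± 0.06 s.e., adjusted p = 2.8e-08). The neuronal forms *Stmn3* and *Stmn4* had log2 fold changes of 0.90 (s.e. 0.05) and 0.78 (s.e. 0.08). Of the family's counts per kilobase, *Stmn1* made up 47.5% ± 1.74 in TdTomato- and 36.5% ± 0.498 in TdTomato+ cells, *Stmn2* 11.8% ± 0.392 and 20% ± 0.184, and *Stmn4* 9.96% ± 0.372 and 10.04% ± 1.2 (SD, n = 5).

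All 3 CAMSAP genes and all 5 EB and CLASP genes of the set were called higher, beside 37.9% of all genes. Among the CAMSAPs, which hold minus ends, *Camsap1* was at 295, 282, 295, 298 and 283 CPM (TdTomato-) and 358, 351, 344, 345 and 356 CPM (TdTomato+) (log2 fold change 0.27 ± 0.04 s.e., adjusted p = 1.2e-04). *Camsap3* was at 116, 93.7, 99.5, 106 and 111 CPM (TdTomato-) and 248, 211, 212, 222 and 239 CPM (TdTomato+) (log2 fold change 1.11 ± 0.04 s.e., adjusted p = 1.2e-08), and *Camsap2* lay between them (0.49 ± 0.03 s.e.). All 3 had groups that did not overlap, beside 61.6% of all genes. *Camsap3* went from 21.3% ± 1.5 to 31% ± 1.63 of the family's counts per kilobase. Among the plus-end binding EB proteins, *Mapre1*, found in most cell types, was at 262, 285, 309, 259.7 and 276 CPM (TdTomato-) and 331, 349.5, 341, 349 and 326 CPM (TdTomato+) (log2 fold change 0.29 ± 0.05 s.e., adjusted p = 3.6e-04). *Mapre2*, which encodes EB2, was at 196, 200.4, 220.0, 211 and 218 CPM (TdTomato-) and 500.3, 452, 419.9, 487 and 489 CPM (TdTomato+) (log2 fold change 1.17 ± 0.06 s.e., adjusted p = 1.2e-07). *Mapre3*, the neuronal EB3, rose by 0.82 (s.e. 0.04) on the log2 scale.

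CLASPs bind plus ends together with EB proteins and slow their shrinkage. *Clasp2* rose by 0.95 (s.e. 0.04) on the log2 scale, from 266 ± 19.5 to 513 ± 16.6 CPM, and *Clasp1* by 0.11 (s.e. 0.04, adjusted p = 0.030), from 497 ± 11.5 to 536 ± 20.96 CPM (SD, n = 5). The *Clasp1* groups overlapped, it was higher in 4 of 5 mice, and its call was lost in 5 of 11 alternative analyses. *Clasp1* was the larger share of the pair in TdTomato- cells (56.9% ± 2.20) and *Clasp2* in TdTomato+ cells (57.6% ± 1.56).

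The largest fall of the 53 genes was that of *Nde1* (chr16:14163275-14192928, plus strand), which encodes a dynein regulator needed for mitosis of cortical progenitors. It was at 77.5, 85.5, 79.9, 81.4 and 79.7 CPM (TdTomato-) and 3.13, 4.55, 3.31, 3.83 and 4.93 CPM (TdTomato+), and fell by 4.36 ± 0.09 s.e. in log2 fold change (adjusted p = 1.8e-09). The groups were far apart in every mouse. Its paralog *Ndel1*, which acts in nuclear migration of postmitotic neurons, was at 42.4, 43.3, 45.6, 45.7 and 49.1 CPM (TdTomato-) and 53.4, 50.4, 53.8, 52.3 and 50.8 CPM (TdTomato+), with groups that did not overlap (log2 fold change 0.21 ± 0.05 s.e., adjusted p = 0.0052). *Nde1* made up 64.5% ± 1.62 of the pair per kilobase in TdTomato- and 7.16% ± 1.49 in TdTomato+ cells (SD, n = 5). The partners of both proteins rose. *Dync1h1*, the dynein heavy chain, was at 1634, 1627, 1646, 1661 and 1582 CPM (TdTomato-) and 2164, 2197, 2211, 2007 and 1969 CPM (TdTomato+) (log2 fold change 0.37 ± 0.04 s.e., adjusted p = 2.7e-05), and *Pafah1b1*, which encodes Lis1, was at 312, 336, 337, 293 and 289 CPM (TdTomato-) and 408, 433, 410.5, 459.5 and 396 CPM (TdTomato+) (log2 fold change 0.43 ± 0.05 s.e., adjusted p = 6.6e-05). Both had groups that did not overlap.

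Of the 11 kinesins, 8 rose, 2 fell and 1 was not called, beside 37.9% higher and 39.4% lower among all genes. *Kif5a*, the neuronal kinesin-1 heavy chain, had the largest increase, from 296, 248, 285, 273 and 283 CPM to 749.8, 634, 639, 669 and 692 CPM (log2 fold change 1.29 ± 0.04 s.e., adjusted p = 8.4e-09). *Kif5c* rose by 0.41 (s.e. 0.05), and *Kif5b*, the heavy chain of most other cell types, was at 169 ± 9.81 CPM (TdTomato-) and 160.4 ± 5.31 CPM (TdTomato+) (log2 fold change -0.07 ± 0.04 s.e., adjusted p = 0.14). The share of *Kif5a* among the 3 went from 24.5% ± 2.37 to 38.5% ± 2.92 per kilobase, and that of *Kif5b* from 13.1% ± 0.882 to 7.99% ± 0.285. The kinesin-3 motors of axonal vesicle transport, *Kif1a* and *Kif1b*, rose by 0.86 (s.e. 0.04) and 0.48 (s.e. 0.04). The kinesin-2 subunits *Kif3a*, *Kif3b* and *Kif3c* rose by 0.78, 0.48 and 0.75, and the shares of *Kif3a* and *Kif3c* did not move one way in all mice. Genes on the other strand, mainly *1110002L01Rik*, overlap 40.7% of the exonic length of *Kif3c*.

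The kinesin-4 pair moved in opposite directions. *Kif21b* had the highest level per kilobase of the kinesins, at 1389.6, 1545, 1481, 1549 and 1572 CPM (TdTomato-) and 2094, 2019.9, 1998, 1972 and 2144 CPM (TdTomato+) (log2 fold change 0.44 ± 0.04 s.e., adjusted p = 1.5e-05). *Kif21a*, which restrains microtubule growth, fell by 0.84 (s.e. 0.05) on the log2 scale, from 276 ± 11.9 to 154 ± 9.76 CPM. Neither gene had overlapping groups, and *Kif21a* went from 25.7% ± 1.18 to 12.4% ± 0.361 of the pair. The largest fall among kinesins was that of *Kif26b* (chr1:178529125-178939200), an atypical kinesin without known motor activity. It was at 77.8, 94.9, 86.96, 104 and 94.5 CPM (TdTomato-) and 29.7, 6.98, 6.89, 21.8 and 17.8 CPM (TdTomato+), and fell by 2.61 ± 0.31 s.e. in log2 fold change (adjusted p = 5.2e-05). The TdTomato+ libraries of mice 3 and 4 were lowest and that of mouse 2 highest, and all lay below the TdTomato- values. *Gm16564* shares transcript sequence with *Kif26b*, which left 94.3% of its start positions unique for 75 bases.

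Neuronal intermediate filaments run beside microtubules in axons. *Ina*, which encodes alpha-internexin, the first of the 3 to appear in developing neurons, was at 421, 478, 620.3, 464 and 415 CPM (TdTomato-) and 1396, 1423, 1366, 1349 and 1305 CPM (TdTomato+) (log2 fold change 1.53 ± 0.08 s.e., adjusted p = 1.7e-07), and the groups were far apart. The light and medium neurofilament genes were low, moved in both directions among mice and had overlapping groups. *Nefl* was at 34.2 ± 9.099 CPM (TdTomato-) and 29.3 ± 4.22 CPM (TdTomato+) (log2 fold change -0.20 ± 0.11 s.e., adjusted p = 0.13), and *Nefm* at 74.7 ± 10.6 and 79.7 ± 6.9 CPM (log2 fold change 0.10 ± 0.09 s.e., adjusted p = 0.30). The sources used here do not state the strand setting of the counts, and *Nefl* and *Nefm* overlap each other by 32.8% and 19.2% of their exonic length.

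A change in the make-up of a family could be followed for 13 families and 40 genes, as the share of the family's counts per kilobase. For 36 of the 40 shares the difference had the same direction in all 5 mice, the exceptions being *Tubb3*, *Kif3a*, *Kif3c* and *Stmn4*. The exact sign-flip test over 5 pairs cannot give less than p = 0.0625, which was its value for these 36 shares (0.069 after Benjamini-Hochberg adjustment over the 40). Shares within a family sum to 100%, so that a rise of 1 gene is a fall of another. The share of *Tubb3* was 28.2% ± 0.533 of the beta-tubulins in TdTomato- and 28.1% ± 0.354 in TdTomato+ cells, *Tubb5* went from 34.8% ± 0.844 to 28.8% ± 0.243, *Tubb2b* from 28.8% ± 0.475 to 32.6% ± 0.433 and *Tubb2a* from 3.27% ± 0.159 to 5.69% ± 0.263 (SD, n = 5). *Tuba1a* made up 96.2% ± 0.251 and 99.1% ± 0.0604 of the alpha-tubulins, or 96.6% and 99.1% over the length uniquely mappable with reads of 75 bases. On that basis *Tubb2a* made up 5.03% and 8.54% of the beta-tubulins, *Tubb2b* 35.8% and 39.5%, *Tubb5* 29.7% and 23.9% and *Tubb3* 24.6% and 23.75%. *Tubb2b* was then the largest share in both groups, and the *Tubb3* share differed by -0.82 percentage points. Over the uniquely mappable length, 37 of the 40 shares moved one way in all mice.

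**Figure D3:**
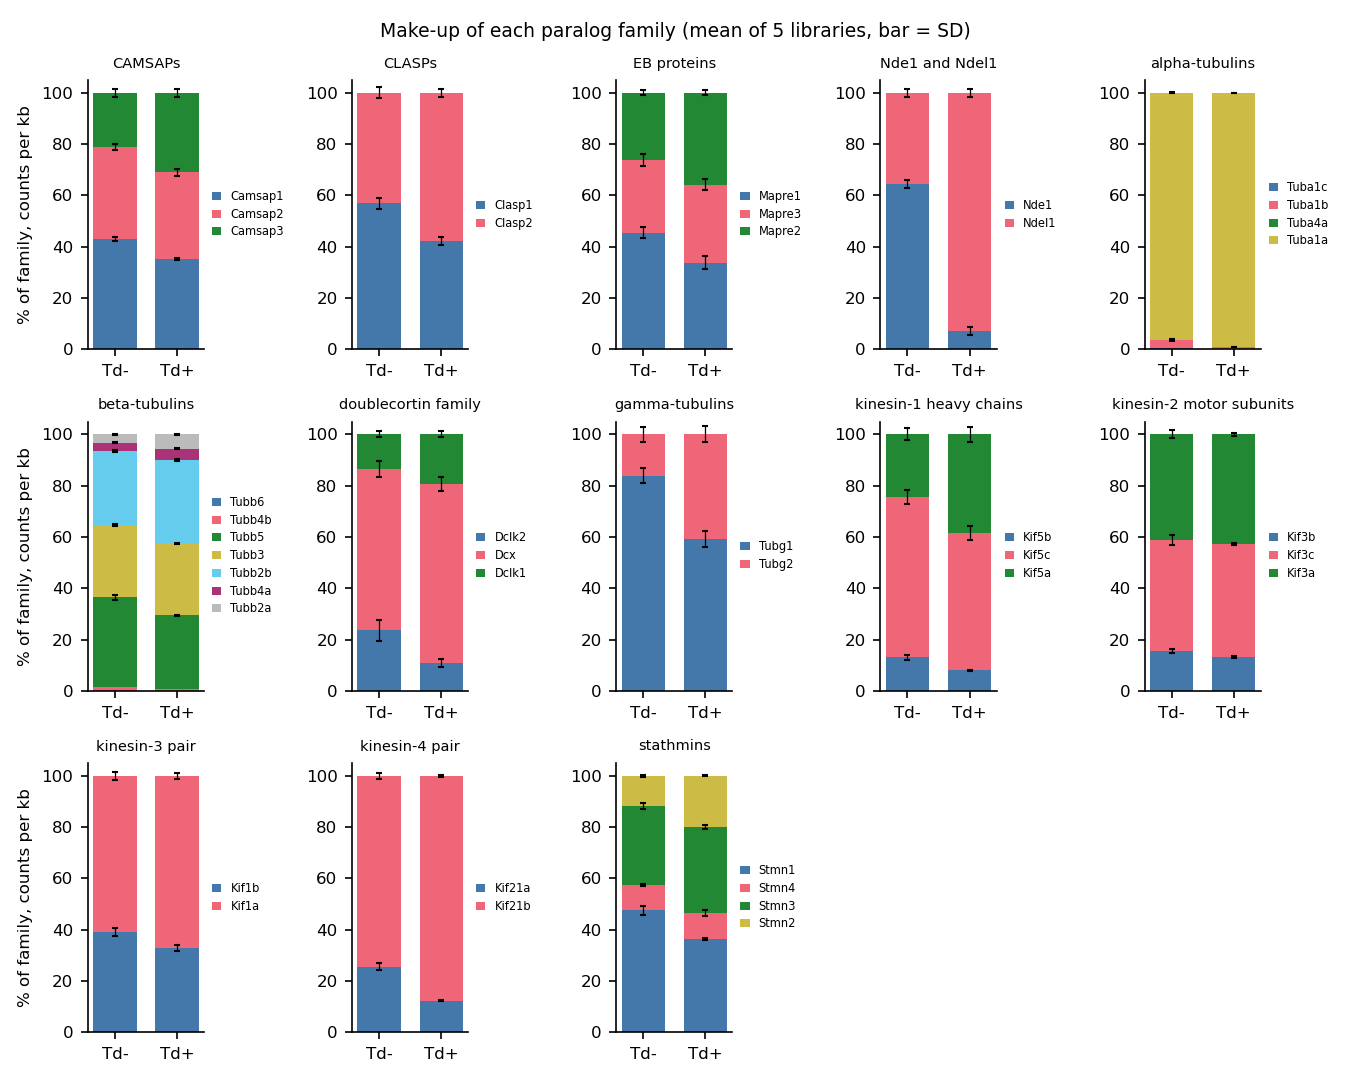
Make-up of 13 paralog families in TdTomato- (Td-) and TdTomato+ (Td+) cells as percent of the family's counts per kilobase of exon, means of 5 libraries with SD bars. The pairs that differ most are *Nde1* with *Ndel1* (64.5% *Nde1* against 7.16%) and *Tubg1* with *Tubg2* (83.9% *Tubg1* against 59.1%).

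Genes that fell were at very different fractions of their TdTomato- level. *Nde1* was at 4.89%, *Tuba1c* at 7.14%, *Tubb6* at 8.40% of group means and *Kif26b* at 18.2%. *Tuba1b* was at 39.3%, and *Kif21a*, *Tuba4a*, *Map7*, *Tubb4b*, *Dclk2* and *Tubg1* were at 55.8 to 84.1%. Beside them, the summed level in TdTomato+ cells was 6.98% for the 10 radial glia and intermediate progenitor markers (143.8 to 209 CPM against 2218 to 2753 CPM), 3.90% for the 8 GABAergic neuron markers (51.3 to 76.6 CPM against 1573 to 1967 CPM) and 2.81% for the 8 cycling cell markers (28.3 to 66.3 CPM against 1559 to 1971 CPM). The part of these cells in the falls was not tested.

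**Figure D4:**
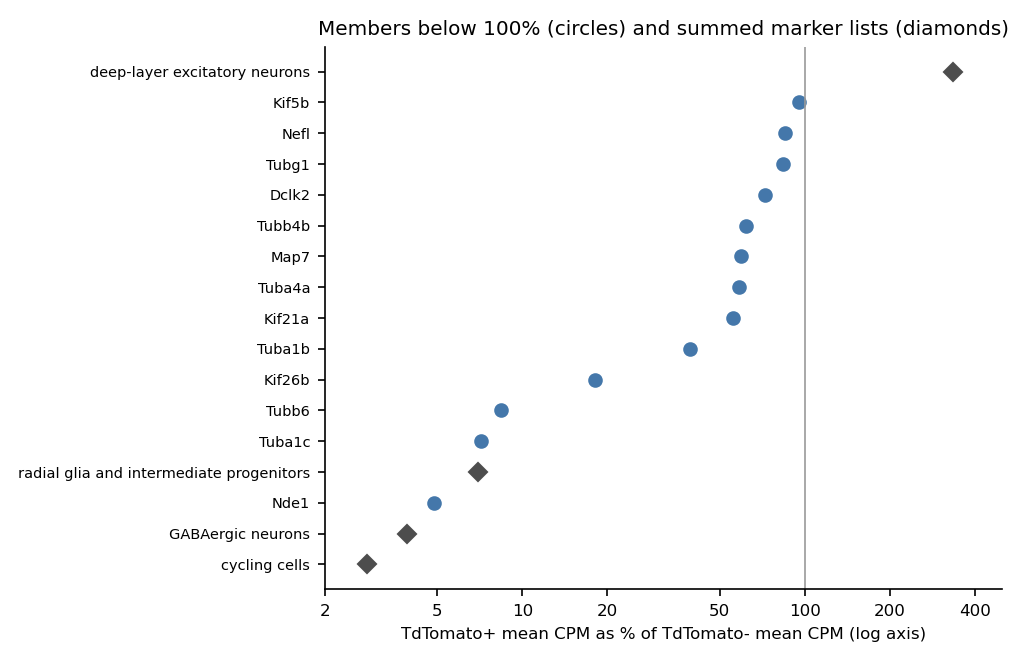
Mean TdTomato+ CPM as percent of mean TdTomato- CPM on a log axis, for the 13 genes below 100% (circles) and 4 summed marker lists (diamonds). *Nde1* (4.89%) and *Tuba1c* (7.14%) lie near the GABAergic neuron markers (3.90%) and the radial glia and intermediate progenitor markers (6.98%), whereas *Dclk2* (72.2%) and *Tubg1* (84.1%) lie further right.

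A total of 94 related genes in 7 lists was counted alongside, of which 93 had a row, 63 were higher, 15 lower and 15 not called, with a median log2 fold change of 0.30. The counts of each list stand beside 37.9% higher and 39.4% lower among all genes, and a median of -0.01. Of 16 genes for enzymes that modify tubulin and their partners, 11 were higher and 2 lower (median 0.49). *Agtpbp1*, which shortens polyglutamate side chains, rose most (1.33, s.e. 0.04), and *Agbl4*, a related carboxypeptidase, fell most (-1.31, s.e. 0.25) at means of 1.13 (TdTomato-) and 0.452 CPM (TdTomato+). Of 20 other microtubule-binding proteins in the table, 17 were higher and 3 lower (median 0.60), with *Dst*, a crosslinker of microtubules and other filaments, at 1.71 (s.e. 0.04) and *Slain1*, an EB partner, at -0.66 (s.e. 0.04). Of 8 kinesin light chains and adaptors, 7 were higher and 1 lower (median 0.47), from *Kifap3*, the kinesin-2 adaptor (1.01, s.e. 0.04), to *Klc4* (-0.40, s.e. 0.05).

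Of 19 genes for dynein and dynactin subunits and their adaptors, 15 were higher and 1 lower (median 0.25). The dynein intermediate chain *Dync1i1*, known for neuronal expression, had by far the largest rise of any related gene, from 15.6 ± 7.17 to 231.5 ± 83.4 CPM (SD, n = 5), or 3.93 ± 0.09 s.e. in log2 fold change (adjusted p = 2.2e-09), while *Bicd2*, a dynein adaptor, fell by 0.22 (s.e. 0.04). Of 10 genes for kinases of microtubule-associated proteins and their activating subunits, 6 were higher and 4 not called, with *Mapk8*, the kinase JNK1, at 0.98 (s.e. 0.06). The 13 genes of tubulin folding and nucleation had 5 higher, a share near the 37.9% of all genes, 3 lower and a median of 0.01, from *Tbce*, a tubulin chaperone (0.60, s.e. 0.06), to *Tubgcp3*, a gamma-tubulin complex protein (-0.55, s.e. 0.05). The severing enzymes were the only list of the 7 with more lower (5) than higher (2) genes among 7. *Fignl1* had the largest fall (-3.55, s.e. 0.10), from 28.9 ± 3.40 to 2.46 ± 0.304 CPM, and *Spast*, which encodes spastin, the largest rise (0.43, s.e. 0.06).

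**Figure D5:**
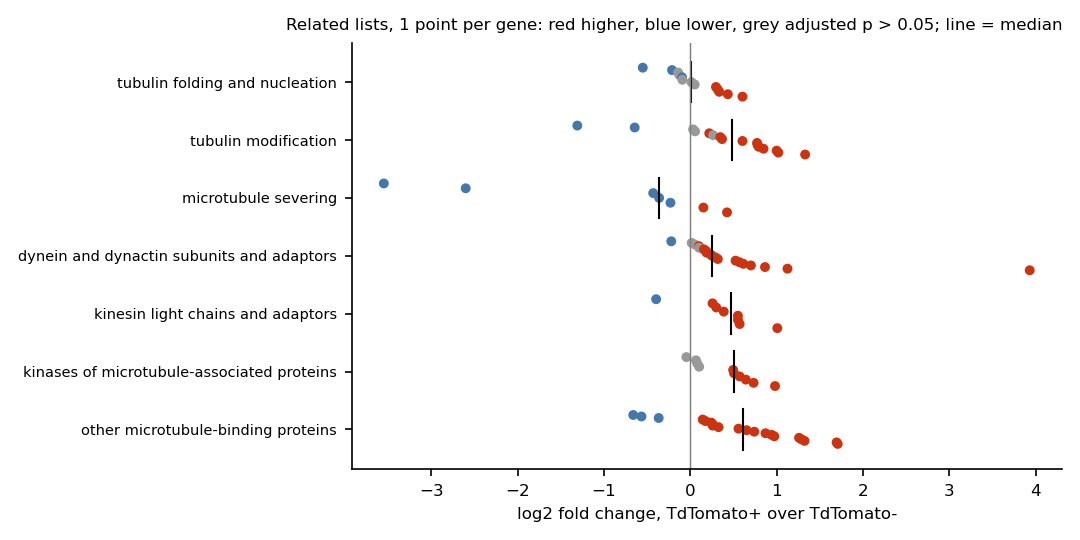
Log2 fold change of TdTomato+ over TdTomato- cells for the 93 related genes in 7 lists, 1 point per gene, with a line at each list's median. The medians run from -0.36 for the severing enzymes to 0.60 for other microtubule-binding proteins, and *Dync1i1* stands alone at 3.93.

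Sequence upstream of a start site was available from RefSeq (GRCm38.p6) for 37 of the 53 genes. It was searched on both strands, over 250 bases before the start, for 4 short motifs. Where a gene had several such sequences, only that with the lowest genomic coordinate was used, whatever the strand. CAGATG, an E-box bound by proneural factors, was present upstream of 7 of the 28 higher genes (*Camsap1*, *Camsap2*, *Kif1b*, *Kif3a*, *Kif3c*, *Map1b* and *Stmn3*) and of 0 of the 9 lower genes, beside 14.6% of all 27025 upstream sequences. CAGCTG was present upstream of 2 of the 28 and 1 of the 9 (12.9% of all), CCAAT of 11 and 4 (34.2% of all) and TTTGAA of 1 and 3 (16.3% of all). As examples, the upstream sequences of *Map1b* (chr13:99516603-99516852, minus strand) and *Stmn3* (chr2:181314501-181314750, minus strand), the highest log2 fold changes of the 7, and of *Tuba1c* (chr15:99029641-99029890, plus strand) are given 5′ to 3′ with matches in capitals, which are CAGATG in the first pair and CCAAT on the opposite strand in *Tuba1c*.
Map1b: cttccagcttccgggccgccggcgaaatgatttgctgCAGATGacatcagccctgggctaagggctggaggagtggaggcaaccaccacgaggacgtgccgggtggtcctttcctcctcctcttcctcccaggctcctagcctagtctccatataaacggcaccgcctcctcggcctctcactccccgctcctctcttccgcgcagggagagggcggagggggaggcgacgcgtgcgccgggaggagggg
Stmn3: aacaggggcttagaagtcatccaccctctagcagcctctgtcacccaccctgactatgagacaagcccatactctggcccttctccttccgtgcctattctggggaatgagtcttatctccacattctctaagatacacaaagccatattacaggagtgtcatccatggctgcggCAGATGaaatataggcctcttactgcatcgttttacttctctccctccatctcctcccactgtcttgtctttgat
Tuba1c: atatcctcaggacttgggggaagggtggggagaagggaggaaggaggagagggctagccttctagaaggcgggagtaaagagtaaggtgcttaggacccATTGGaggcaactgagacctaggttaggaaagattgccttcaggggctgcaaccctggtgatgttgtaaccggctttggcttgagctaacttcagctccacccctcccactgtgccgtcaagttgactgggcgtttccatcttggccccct
A match describes these letters only, and no binding was measured.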

How the data were processed

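RNA-seq was performed on 10 sorted libraries, a TdTomato+ and a TdTomato- library from each of 5 mice. The authors trimmed reads with Trim Galore (bases with Phred scores under 28 removed), aligned them with STAR (2.4.2a in the submitters' processing notes) to GRCm38 allowing 1 mismatch, and deposited raw counts of uniquely mapped reads per gene. The strand setting and annotation release of the counts are not given in the sources used here. The labels and the methods differ in library kit and read length (100 and 75 bases).

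Counts were analysed in R 4.3.3 with edgeR 4.0.16: TMM scaling, filterByExpr (which kept all 14300 genes), the quasi-likelihood F-test with mouse as a block, prior count 0.125, and Benjamini-Hochberg adjustment over all genes (threshold 0.05). Standard errors are the log2 fold change divided by the square root of F. DESeq2 1.42.0, TREAT, RLE and upper-quartile scaling, robust estimation, a CPM filter, no count filter, a prior count of 2, no block and leaving out each mouse were alternatives. Same-numbered libraries come from the same mouse, and their deviations from the group means correlated at 0.186 to 0.316 (other numbers, -0.312 to 0.212). Libraries of a group differed by more than sampling noise (chi-square per degree of freedom 4.46 to 32.04). Total counts were 23429034 to 27286180, and a count of 3 corresponded to 0.117 CPM in the TdTomato- library of mouse 2.

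Paralog shares are counts divided by exonic length within a family, compared over mice with exact sign-flip and permutation tests. Gene models and coding sequences were from GENCODE M21, upstream sequences from RefSeq. The coding ends of the alpha-tubulins are not reported here. Members and gene lists were chosen with earlier results of these data known. Values in every library are given for each tubulin, for the member of each class with the highest level per kilobase and for the largest increase and decrease of each class among genes past the threshold. For related genes, the largest increase and decrease of each list past the threshold are named. *Ndel1*, the paralog of *Nde1*, was added after its values were seen.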

Additional observations from a re-analysis of the deposited data

Results flagged for a closer look

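In 106 groups of 5 libraries (53 genes in TdTomato+ and in TdTomato- cells), the gap between the most extreme library and its neighbour was compared with the range of the group by Dixon's test at the 95% level, both on log2 CPM with a prior count of 2. Chance flags about 1 in 20 such groups, or 5.3 of 106, and 4 were flagged. *Tubb6* was highest in the TdTomato+ library of mouse 6 (0.542 CPM, beside 0.0867 to 0.132 CPM in the others, a gap of 0.817 of the log2 range). *Mapt* was lowest in the TdTomato- library of mouse 3 (598 CPM, beside 717 to 748 CPM, 0.812 of the log2 range). *Kif3a* was highest in the TdTomato- library of mouse 2 (147.7 CPM, beside 135.6 to 138.6 CPM, 0.743 of the log2 range), and *Kif1a* in the TdTomato+ library of the same mouse (1315 CPM, beside 1198 to 1227 CPM, 0.743 of the log2 range). For *Mapt*, *Kif3a* and *Kif1a* the groups remained apart with these libraries included.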

How the results depend on the processing

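Omitting the count filter, which removed no gene, and a prior count of 2 could not change a call. Of 583 log2 fold changes of the 53 genes under the other 11 alternatives, 569 kept their direction and their side of the threshold, 14 kept their direction but were no longer called, and 0 reversed. The 14 belonged to *Map7*, *Map4* and *Clasp1*. None of the 11 alternatives set the scale by total counts alone, which was done only for summed CPM. That choice matters, since TMM factors split by group: the lowest for TdTomato- was 1.059, the highest for TdTomato+ 0.9457. Without them the log2 difference of the tubulin sum was 0.38. Whether changes as small as those of *Map4* (0.10) and *Clasp1* (0.11) keep their direction on that scale was not tested. Leaving out each mouse gave 37 to 39 higher and 10 to 11 lower genes, 10 to 12 higher and 5 to 6 lower by 2-fold or more, and 4 at the study's threshold, of which TREAT called 3. Without the mouse block the numbers were 39, 11, 10, 5 and 4, so the block changed no count of member calls. The log2 difference of the summed tubulin CPM is 0.56 with or without pairing by construction. Only its test differs, since the unpaired exact permutation test is able to pass the threshold that 5 pairs cannot. Without the 7 genes that overlap another gene by more than 10%, an alternative chosen after seeing the data, 36 were higher and 9 lower. The share of *Stmn4* among stathmins differed by -0.25 to 0.55 percentage points when each mouse was left out, reversing to -0.25, -0.18 and -0.08 without mouse 2, 5 or 6, and the summed CPM of gamma-tubulins, log2, became -0.0071 with total counts as library size. The cause was not tested. Depth limited *Tubb6*, which had at most 3 counts in 4 TdTomato+ libraries.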
